A study of Mus musculus with 61 samples.

Results

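The comparison set adipose tissue of mice of the inbred strain 129 against adipose tissue of mice of the inbred strain B6. It took the libraries whose names start with 129, 7 in number, and those whose names start with B6, 8 in number, so 15 of the 61 RNA sequencing libraries of the study. Of 21169 genes in the table, the 18603 that passed a filter on low counts were tested. The study covered 8 founder strains of a mouse population, and the other 6 strains entered here only for the estimate of spread between libraries and for setting levels side by side. All mice, of 129 and B6 alike, had been put on a high-fat, high-sugar diet that the labels give as 45 percent fat. The labels name neither the substrain of 129 or B6, nor the sex, age or fat depot. They number the libraries within each strain and do not say what the number marks. The p-values thus rest on the spread between libraries of a strain, pooled over all 8 strains. The main fit had no term for anything but strain.

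Both strains are standard laboratory strains. The mouse reference genome is that of a B6 mouse, and 129 is the strain from which many embryonic stem cell lines were made. Inbred strains carry each gene in a fixed allele, and families of innate immune genes, among them interferon-induced GTPases, tripartite motif (TRIM) proteins and natural killer cell receptors, are known to differ between strains in gene number as well as in sequence. White fat stores triglyceride in adipocytes, releases it by lipolysis and houses macrophages, lymphocytes and progenitor cells between the adipocytes. Thermogenic adipocytes burn fatty acids in mitochondria that hold the uncoupling protein Ucp1.

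The library totals ran from 34681111 to 43511883 counts in 129 and from 33244226 to 61277574 in B6. The labelled tissue was borne out by its markers, with the adipocyte hormone gene Adipoq at 1315 to 2921 CPM (median 2096) in 129 and 1185 to 2964 CPM (median 2293) in B6. CPM are counts set to one common library total and scaled between libraries by the trimmed mean of M-values (TMM). Log2 CPM of 2 libraries correlated across genes with a median r of 0.957 within 129, 0.958 within B6 and 0.947 between the strains. In a principal component analysis the second component, with 24% of the variance, separated all 129 from all B6 libraries, while the first, with 33.3%, split each strain. The split followed Xist, the RNA that silences 1 X chromosome in female cells. Xist stood at 418 CPM of the library total or more in replicates 1 to 4 of each strain, and at most at 4.45 CPM in the other 3 libraries of 129 and 7.33 CPM in the other 4 of B6. The Y chromosome genes Ddx3y, Kdm5d, Uty and Eif2s3y took the opposite side in every library. Libraries also differed in RNA of other tissues. Markers of the male reproductive tract summed to over 300 CPM in 129 replicates 6, 7 and 9 and in B6 replicates 5 and 6, and liver markers to over 200 CPM in B6 replicates 2, 4 and 6. The part of either in the results was not tested beyond leaving those libraries out. Replicates 6, 7 and 9 are also the 3 libraries of 129 with little Xist. Leaving out the libraries rich in male reproductive tract markers thus sets 129 libraries with high Xist only against B6 libraries of both Xist levels.

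**Figure D1:**
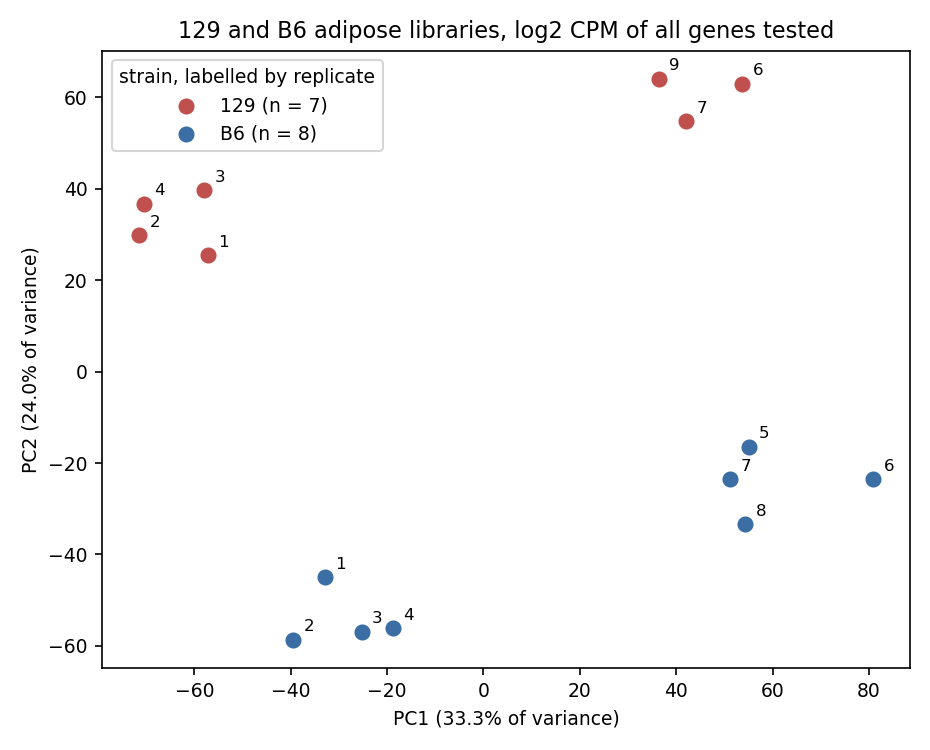
Principal components of log2 CPM over all genes tested, with PC1 on the horizontal axis (33.3% of variance) and PC2 on the vertical axis (24% of variance). Each point is 1 library, labelled by replicate, and the 7 libraries of 129 lie above all 8 of B6 on PC2.

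Of the 18603 genes, 1941 (10.4%) differed between 129 and B6 at an adjusted p under 0.05 in edgeR's quasi-likelihood test, the rule for a called gene throughout. The 848 genes higher in 129 were 4.56% of all tested, and the 1093 lower in 129 were 5.88%. The median log2 fold change of 129 over B6 was -0.01 over all genes tested, and the median size of change among called genes was 0.89 on the log2 scale. A fold of at least 2 held for 874 called genes, 320 higher and 554 lower, and a fold of at least 8 for 212, 75 higher and 137 lower. For 1006 called genes (5.41% of all tested) every 129 library lay on one side of every B6 library, 440 above and 566 below. Whether called or not, 494 genes (2.66%) lay above and 638 (3.43%) below without overlap, 6.09% of all tested. The remaining 935 called genes overlapped in at least 1 library. A fit on the 15 libraries alone called 2988 genes, 1284 higher and 1704 lower, and a fit without the 5 libraries rich in male reproductive tract markers called 1156, 525 higher and 631 lower.

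The largest differences were near on-or-off. Among genes higher in 129, the histidine ammonia-lyase gene Hal, whose enzyme starts histidine breakdown, measured 78.3 to 168 CPM (median 109.6) in 129 and 1.13 to 2.6 CPM (median 1.8) in B6. Every 129 library thus held more Hal than any B6 library, 64.8-fold by the fit (log2 fold change 6.02 ± 0.40 SE, adjusted p = 1.58e-18). Gdpd3, a phosphodiesterase of lysophospholipids, stood at 52.4 to 85.4 CPM (median 66.1) in 129 and 1.14 to 1.76 CPM (median 1.5) in B6, and it had the smallest p of all genes (log2 5.52 ± 0.20 SE, adjusted p = 1.23e-29). The fatty acid elongase gene Elovl7 reached 13.8 to 18 CPM (median 16.1) in 129, against 0.772 to 2.89 CPM (median 1.3) in B6 (log2 3.28 ± 0.39 SE, adjusted p = 2.58e-09). None of these 3 genes overlapped between the strains. On build GRCm38, the annotation deposited with the counts places Hal at chr10:93488768-93519304, Gdpd3 at chr7:126766334-126775649 and Elovl7 at chr13:108214404-108287105. Gdpd3 shares reads with other genes, meaning that its deposited estimate was not whole in over 50% of libraries, so reads of similar sequences may be divided with it.

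Genes lower in 129 reached larger folds. Gvin1, a very large interferon-inducible GTPase that shares reads, was at 0 in 4 of 7 libraries of 129, where its values ran 0 to 0.26 CPM (median 0), against 44.6 to 125 CPM (median 88) in B6 (log2 -9.83 ± 0.59 SE, adjusted p = 4.13e-20). Its reads summed to 25 over the 129 libraries and 29265 over the B6 libraries. The netrin receptor gene Unc5a measured 0.618 to 1.77 CPM (median 1.2) in 129 and 31.8 to 69.6 CPM (median 48.2) in B6 (log2 -5.35 ± 0.50 SE, adjusted p = 1.70e-12). Cd209a, a C-type lectin of dendritic cells, measured 0.0883 to 0.543 CPM (median 0.311) in 129 and 12.5 to 16.1 CPM (median 13.6) in B6 (log2 -5.47 ± 0.38 SE, adjusted p = 2.56e-17). Pttg1, the securin that restrains the separation of sister chromatids until anaphase, measured 0.657 to 1.24 CPM (median 0.905) in 129 and 15.5 to 21.9 CPM (median 18.2) in B6 (log2 -4.32 ± 0.35 SE, adjusted p = 1.12e-14). In each of these 4 genes the highest 129 library lay far under the lowest B6 library. Gvin1 lies at chr7:106156556-106215326, Unc5a at chr13:54949411-55006018, Cd209a at chr8:3743397-3748984 and Pttg1 at chr11:43420250-43426251. The actin regulator gene Eps8l1 (log2 -3.66 ± 0.56 SE, adjusted p = 1.39e-06), the transferrin receptor gene Tfr2 (-3.91 ± 0.75 SE, adjusted p = 1.22e-04) and the hormone-degrading ectopeptidase gene Trhde (-4.10 ± 0.38 SE, adjusted p = 6.95e-13, shares reads) were also lower in 129 without overlap.

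**Figure D2:**
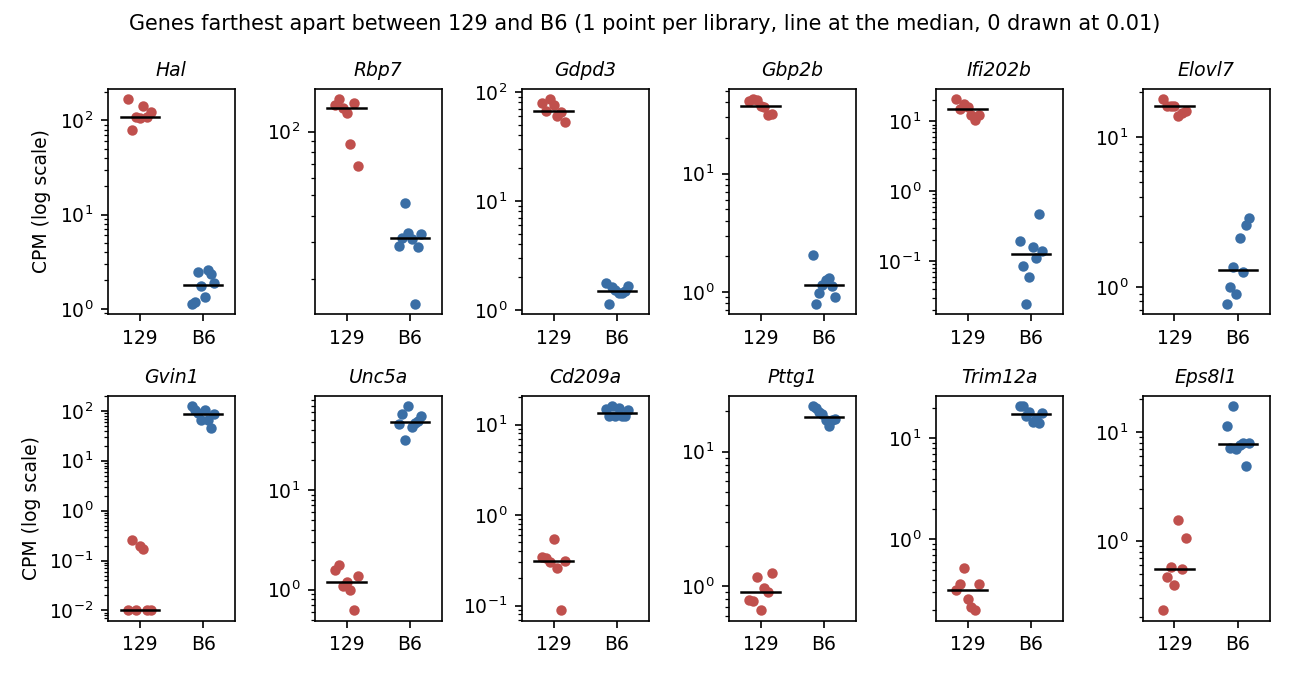
CPM on a log axis for 12 genes among those farthest apart, with 129 (7 libraries, left) and B6 (8 libraries, right) in each panel, 1 point per library, a line at the median and libraries at 0 drawn at 0.01. The upper row holds genes higher in 129 and the lower row genes lower in 129, and in no panel do the strains overlap.

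Interferon-inducible genes stood at both ends of the ranking. The p200 family gene Ifi202b, a DNA-binding protein, measured 10.3 to 20.7 CPM (median 14.9) in 129 and 0.0246 to 0.474 CPM (median 0.125) in B6 (log2 6.55 ± 0.54 SE, adjusted p = 1.12e-14). The guanylate-binding protein gene Gbp2b, which shares reads, measured 31.2 to 42.5 CPM (median 37.4) in 129 and 0.797 to 2.07 CPM (median 1.14) in B6 (log2 4.96 ± 0.28 SE, adjusted p = 5.12e-21). Opposite in direction, the TRIM genes Trim12a and Trim30d, both sharing reads, were close to absent in 129. Trim12a measured 0.199 to 0.527 CPM (median 0.319) in 129 and 14.3 to 20.9 CPM (median 17.3) in B6 (log2 -5.75 ± 0.42 SE, adjusted p = 6.93e-17). Trim30d measured 0 to 0.348 CPM (median 0.2) in 129 and 12.1 to 16.2 CPM (median 13.8) in B6 (log2 -6.15 ± 0.62 SE, adjusted p = 1.42e-11). No library of one strain reached the range of the other in any of the 4 genes.

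The promoters of these 4 genes are shown because these interferon-inducible genes are among those farthest apart, in both directions, so that the elements known to carry the interferon response can be seen in the reference allele. The sequences are RefSeq's for build GRCm38.p6, which is B6, and hold 250 bases before and 50 after the annotated start. All 4 genes looked for were matched by symbol. Capitals mark the core of the interferon-stimulated response element, GAAANNGAAA or TTTCNNTTTC on the other strand, and the gamma-activated site, TTCNNNGAA, which reads the same on both strands. The response element core occurs in 3.44% of 32851 RefSeq promoters of that length and the gamma-activated site in 8.3%. Ifi202b lies at chr1:173982795-173983094 on the minus strand, Gbp2b at chr3:142594597-142594896 on the plus strand, Trim12a at chr7:104315446-104315745 and Trim30d at chr7:104507800-104508099, both on the minus strand.
Ifi202b: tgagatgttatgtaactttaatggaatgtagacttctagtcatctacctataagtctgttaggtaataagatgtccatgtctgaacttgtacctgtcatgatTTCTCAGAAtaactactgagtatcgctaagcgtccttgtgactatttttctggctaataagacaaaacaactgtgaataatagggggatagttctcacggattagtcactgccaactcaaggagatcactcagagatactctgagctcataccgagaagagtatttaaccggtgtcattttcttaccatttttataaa
Gbp2b: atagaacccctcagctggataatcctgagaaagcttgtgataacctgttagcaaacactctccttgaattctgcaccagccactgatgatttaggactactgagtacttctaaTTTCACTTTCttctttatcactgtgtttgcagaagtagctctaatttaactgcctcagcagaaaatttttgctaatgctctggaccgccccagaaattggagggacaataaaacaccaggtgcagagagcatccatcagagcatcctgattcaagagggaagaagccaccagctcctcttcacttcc
Trim12a: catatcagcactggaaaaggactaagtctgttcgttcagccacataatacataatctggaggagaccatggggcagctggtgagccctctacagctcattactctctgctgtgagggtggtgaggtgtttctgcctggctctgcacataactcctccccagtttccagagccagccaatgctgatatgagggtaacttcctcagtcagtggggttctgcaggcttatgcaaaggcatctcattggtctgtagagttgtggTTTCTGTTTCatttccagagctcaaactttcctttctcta
Trim30d: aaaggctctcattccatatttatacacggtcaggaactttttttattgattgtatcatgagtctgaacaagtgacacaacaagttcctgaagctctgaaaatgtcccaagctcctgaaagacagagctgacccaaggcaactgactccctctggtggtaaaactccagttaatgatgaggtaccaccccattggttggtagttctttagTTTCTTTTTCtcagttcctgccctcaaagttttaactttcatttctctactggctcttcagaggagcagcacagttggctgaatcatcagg
The Ifi202b promoter held 1 gamma-activated site and no response element core, and the other 3 each held 1 response element core and no gamma-activated site. These are matches of letters in the B6 sequence. The sequence of the 129 alleles was not used here.

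A list of genes known to carry strain alleles, such as deletions, duplications and altered splice sites, had 46 members tested, of which 5 were called higher and 12 lower in 129. That is 37.0% of the list, beside 10.4% of all genes tested, and its median log2 fold change was -0.28, beside -0.01. The inflammasome sensor gene Nlrp1a had reads in 1 of 7 libraries of 129, 7 in all, at 0.203 CPM, and measured 0.427 to 1.86 CPM (median 0.774) in B6 (log2 -4.95 ± 0.59 SE, adjusted p = 2.76e-09). Klra8, an activating receptor of natural killer cells, was at most at 0.11 CPM in 129 and measured 0.0499 to 0.35 CPM (median 0.261) in B6 (log2 -2.77 ± 0.67 SE, adjusted p = 0.00324), with the lowest B6 library inside the 129 range. Casp4, the inflammatory caspase for which 129 mice are known to carry a defective allele, measured 2.9 to 5.5 CPM (median 3.8) in 129 and 6.73 to 13.3 CPM (median 7.42) in B6 (log2 -1.09 ± 0.26 SE, adjusted p = 0.00245). It did not overlap, though its call was lost without the 5 libraries rich in male reproductive tract markers (adjusted p = 0.126). Disc1, for which 129 mice are known to carry a small deletion in the coding sequence, measured 0.64 to 0.943 CPM (median 0.859) in 129 and 1.33 to 2.31 CPM (median 1.62) in B6 (log2 -1.01 ± 0.21 SE, adjusted p = 3.05e-04). The flagellin sensor gene Naip5, which shares reads with its neighbouring copies, measured 1.91 to 3.93 CPM (median 2.61) in 129 and 7.54 to 12.7 CPM (median 8.47) in B6 (log2 -1.80 ± 0.24 SE, adjusted p = 7.58e-08).

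On the other side of that list stood the endosomal protein gene Wdfy1, which measured 41.2 to 45.2 CPM (median 43) in 129 and 13.9 to 18.2 CPM (median 15.6) in B6 (log2 1.44 ± 0.06 SE, adjusted p = 4.34e-27). The glyoxalase gene Glo1, whose product clears methylglyoxal, measured 122 to 156 CPM (median 133) in 129 and 59.4 to 73.6 CPM (median 65.3) in B6 (log2 1.04 ± 0.09 SE, adjusted p = 1.33e-14). Both genes were higher in every 129 library than in any B6 library. For Nnt, the mitochondrial transhydrogenase with a known deletion in C57BL/6J mice, 129 libraries measured 27.4 to 36.2 CPM (median 29.9) and B6 libraries 18.7 to 27.9 CPM (median 24.2), a difference that did not pass the test (log2 0.36 ± 0.15 SE, adjusted p = 0.132). The 129 and B6 ranges of Nnt overlapped by a narrow margin. The p200 gene Mndal, a relative of Ifi202b that shares reads, did not pass either (log2 -0.72 ± 0.35 SE, adjusted p = 0.217) although every 129 library, 15.4 to 23.6 CPM (median 19.4), lay below every B6 library, 23.8 to 42.1 CPM (median 30.8).

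The genes with the smallest p included moderate differences with little spread. Ncoa4, the receptor that delivers ferritin to autophagy, measured 26.4 to 39.97 CPM (median 33) in 129 and 220.1 to 319.6 CPM (median 254) in B6 (log2 -2.99 ± 0.18 SE, adjusted p = 3.86e-20), and it shares reads. Atp10d, a phospholipid-translocating ATPase for which B6 is known to carry a stop codon, measured 99.4 to 137 CPM (median 122) in 129 and 15.2 to 27.9 CPM (median 22.9) in B6 (log2 2.39 ± 0.14 SE, adjusted p = 5.12e-21). In both genes the strains were apart in every library. The annotation classes Atp10d as a pseudogene of varying coding status, so the naming rule passed over it and it was chosen after its values were seen. The hydroxylase gene Jmjd7 (log2 -2.83 ± 0.16 SE, adjusted p = 9.95e-21, shares reads) was lower in 129, and the zinc finger gene Zfp868 (log2 1.37 ± 0.08 SE, adjusted p = 5.44e-20) was higher.

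None of 20 mature adipocyte markers, 20 genes of de novo lipogenesis or 41 nuclear genes of oxidative phosphorylation was called, beside 10.4% of all genes. The median log2 fold change was 0.02 for the adipocyte markers, 0.01 for lipogenesis and 0.25 for oxidative phosphorylation. At an unadjusted p under 0.05, 3 of the adipocyte markers, 3 of the lipogenesis genes and 0 of the oxidative phosphorylation genes would have passed, and DESeq2 called 2, 1 and 0 of them at an adjusted p under 0.05. The fit on the 15 libraries alone called 3 adipocyte markers higher and 1 lower, 2 lipogenesis genes higher and 0 oxidative phosphorylation genes. The leptin gene Lep measured 497 to 2249 CPM (median 909.5) in 129 and 427 to 3129.5 CPM (median 1724) in B6 (log2 -0.50 ± 0.71 SE, adjusted p = 0.772), so its spread within each strain exceeded the difference. Scd1, the desaturase that makes oleate and the most abundant of these transcripts, was at 78279 to 119871 CPM (median 85731) in 129 and 38389 to 77591 CPM (median 63235) in B6. Every 129 library of Scd1 exceeded every B6 library, yet the gene missed the threshold (log2 0.54 ± 0.19 SE, adjusted p = 0.0534), and it shares reads. The insulin-regulated Rab GTPase activator gene Tbc1d4, which links insulin to Glut4 traffic, was the 1 called of 22 insulin signalling genes. Tbc1d4 measured 27.3 to 54.4 CPM (median 35) in 129 and 57.2 to 122 CPM (median 84.7) in B6 without overlap (log2 -1.20 ± 0.22 SE, adjusted p = 4.74e-05).

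Most genes of fat burning had higher estimates in 129, and a few of them passed the test. Of 24 fatty acid oxidation genes, 21 had positive log2 fold changes with a median of 0.54, and 2 were called higher, Ppara and Pdk4, 8.33% of the list beside 4.56% of all genes called higher. Of 17 thermogenic adipocyte genes, 16 were positive with a median of 0.84, and 2 were called higher, Ppara and Cidea, 11.8% of the list. Without the 3 libraries rich in liver markers neither list had a called gene. In the triglyceride list of 20 genes, Plin5, Cidea and Pck1 were called higher, 15% of the list, none lower, and the median was 0.32. Without the 3 libraries rich in liver markers, or without the 5 rich in male reproductive tract markers, 1 of the triglyceride genes was called. Plin5, which tethers lipid droplets to mitochondria, measured 16.2 to 56.2 CPM (median 30.2) in 129 and 4.96 to 11.1 CPM (median 9.19) in B6 (log2 1.90 ± 0.36 SE, adjusted p = 9.74e-05), with every 129 library above every B6 library. Cidea, a lipid droplet protein abundant in brown fat, measured 14.6 to 227 CPM (median 80.8) in 129 and 1.25 to 46 CPM (median 10.9) in B6 (log2 2.56 ± 0.87 SE, adjusted p = 0.0481). Ppara, the fatty acid-sensing nuclear receptor, measured 7.82 to 47.3 CPM (median 19) in 129 and 3.63 to 15.7 CPM (median 7.79) in B6 (log2 1.48 ± 0.49 SE, adjusted p = 0.0397). Both Cidea and Ppara overlapped between the strains. Pck1, needed to make glycerol for triglyceride, measured 1949 to 4634 CPM (median 4129) in 129 and 382 to 2723 CPM (median 1506) in B6 (log2 1.06 ± 0.36 SE, adjusted p = 0.043), and Pdk4, which restrains glucose oxidation, had a log2 fold change of 1.23 ± 0.42 SE, adjusted p = 0.0464. Ucp1 itself ran 11.3 to 771 CPM (median 107) in 129 and 0.184 to 201 CPM (median 26.3) in B6 and was not called (log2 2.56 ± 1.37 SE, adjusted p = 0.275).

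Where these genes overlapped between the strains, the overlap lay for Ppara, Cidea and Pck1 between libraries with different Xist levels, a split chosen after the data were seen. Among the libraries with Xist over 100 CPM, 4 of each strain, Ppara ran 19 to 47.3 CPM in 129 and 9.36 to 15.7 CPM in B6. Among those with less Xist, 3 of 129 and 4 of B6, it ran 7.82 to 8.86 CPM in 129 and 3.63 to 6.21 CPM in B6. The strains did not overlap within either set. Cidea ran 80.8 to 227 CPM in 129 against 14.6 to 46 CPM in B6 at high Xist, and 14.6 to 24.7 CPM in 129 against 1.25 to 7.21 CPM in B6 at low Xist. Pck1 likewise ran 4129 to 4634 CPM in 129 against 1734 to 2723 CPM in B6 at high Xist, and 1949 to 3059.6 CPM in 129 against 382 to 1278 CPM in B6 at low Xist. Neither Cidea nor Pck1 overlapped within a set. Ppara, Cidea and Pck1 had been picked because they were called between the strains, so a lack of overlap within such small sets is no separate support. The ranges of Pdk4, called as well, are not given here. Ucp1 ran 107 to 771 CPM in 129 and 29.2 to 201 CPM in B6 at high Xist, where the strains overlapped. With Xist as a covariate the adjusted p was 0.00391 for Cidea, 0.0151 for Ppara and 0.105 for Ucp1. With the replicate number as a block it was 0.0571 for Cidea, 0.0914 for Ppara and 0.078 for Pdk4, so that block ended all calls of the oxidation and thermogenic lists. Leaving out single libraries took the adjusted p of Cidea from 0.0231 to 0.14, of Ppara from 0.0245 to 0.135, of Pdk4 from 0.0268 to 0.168 and of Pck1 from 0.027 to 0.0966, and that of Plin5 stayed at most at 6.93e-04. Cidea lost its call without any of 129 replicates 1, 2, 3 and 4 and B6 replicates 2 to 8, Ppara without any of 129 replicates 2, 3 and 4 and B6 replicates 3 and 5 to 8. Pdk4 lost it without any of 129 replicates 1 to 4 and B6 replicates 2 and 5 to 8, and Pck1 without these or 129 replicate 7.

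**Figure D3:**
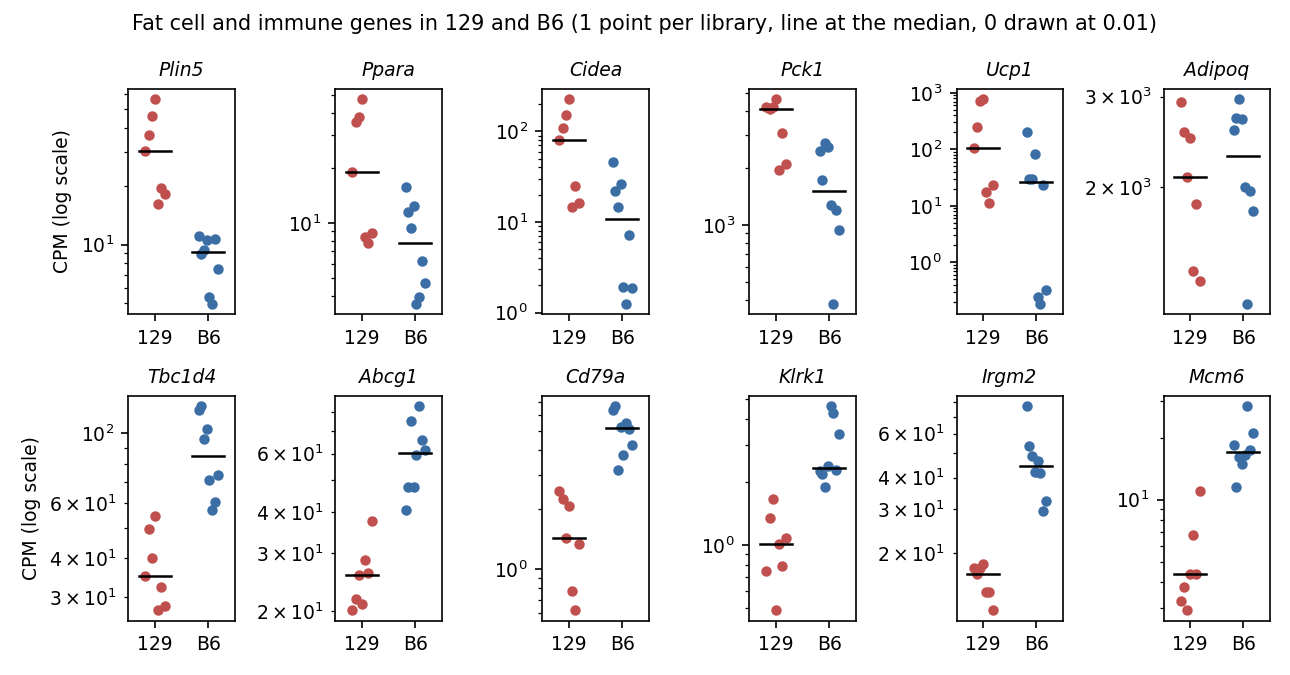
CPM on a log axis for 12 genes of fat cells and immune cells, with 129 (7 libraries, left) and B6 (8 libraries, right) in each panel, 1 point per library, a line at the median and libraries at 0 drawn at 0.01. Plin5 is higher in every 129 library, Cd79a, Abcg1, Klrk1, Irgm2 and Tbc1d4 are lower in every 129 library, and Adipoq overlaps throughout.

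Genes of cholesterol supply moved both ways. Of 22 members 2 were called higher and 4 lower in 129, 27.3% beside 10.4% of all genes, with a median of -0.03. Without 129 replicate 3 or 4 the lower count was 2. Without the 5 libraries rich in male reproductive tract markers 1 was called higher and 1 lower. Without the 3 rich in liver markers 1 was called higher and 2 lower. The synthase gene Hmgcs1, an early step of cholesterol synthesis, measured 518 to 743 CPM (median 687) in 129 and 224 to 444 CPM (median 342) in B6 without overlap (log2 0.85 ± 0.24 SE, adjusted p = 0.0129). The cholesterol exporter gene Abcg1 measured 20.1 to 37.4 CPM (median 25.7) in 129 and 40.5 to 83.6 CPM (median 60.4) in B6 without overlap (log2 -1.22 ± 0.28 SE, adjusted p = 0.0012). Hmgcs1 lost its call without the 5 libraries rich in male reproductive tract markers (adjusted p = 0.0815) and without the 3 rich in liver markers (adjusted p = 0.105), and Abcg1 kept its call in both.

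Among 36 genes of NADPH supply and antioxidant defence, 4 were called higher and 1 lower in 129, 13.9% beside 10.4% of all genes. Without the 3 libraries rich in liver markers 2 were called higher and 0 lower. Without the 5 rich in male reproductive tract markers 3 were called higher and 0 lower. The lower count was also 0 with the replicate number as a block. It was 0 as well without any of 129 replicates 1, 3, 4, 6 and 9 and B6 replicates 1, 3, 4 and 5. The mitochondrial NADP-linked isocitrate dehydrogenase gene Idh2 measured 107 to 164 CPM (median 146) in 129 and 62.2 to 98.3 CPM (median 84.3) in B6 without overlap (log2 0.75 ± 0.15 SE, adjusted p = 1.78e-04). The cytochrome P450 list of 28 genes had 2 called higher and 4 lower, 21.4% beside 10.4%. Without 129 replicate 2 or 4 or B6 replicate 6 none was called higher, and without any of 129 replicate 3 and B6 replicates 5, 7 and 8 that count was 1. Without the 5 libraries rich in male reproductive tract markers 1 was called higher and 2 lower, and without the 3 rich in liver markers 1 higher and 3 lower. Its farthest member, Cyp2f2, measured 0.371 to 1.13 CPM (median 0.943) in 129 and 2.49 to 26.8 CPM (median 4.71) in B6 (log2 -3.67 ± 0.79 SE, adjusted p = 6.74e-04), lower in every 129 library. The log2 fold change of Cyp2f2 was -2.90 without the 3 libraries rich in liver markers and -4.17 without the 5 rich in male reproductive tract markers. The retinol-binding protein gene Rbp7 was higher in 129 at 68.7 to 142 CPM (median 129.5), against 15.3 to 46.1 CPM (median 31.2) in B6 (log2 1.93 ± 0.30 SE, adjusted p = 3.10e-06), and no library crossed over.

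Members of the B cell list and of the T and natural killer cell list were lower in 129 wherever the main fit called them. All 19 B cell markers tested had negative log2 fold changes with a median of -1.65, and 11 were called lower, 57.9% of the list beside 5.88% of all genes. Cd79a, a signalling chain of the B cell receptor, measured 0.618 to 2.49 CPM (median 1.44) in 129 and 3.17 to 6.66 CPM (median 5.15) in B6 (log2 -1.67 ± 0.45 SE, adjusted p = 0.00878). No 129 library reached the B6 range of Cd79a. The summed level of the whole B cell list ran from 95.2 to 344 CPM of the library total in 129 (median 131) and from 232 to 553 CPM in B6 (median 498). In bulk tissue, fewer B cells and less RNA per B cell cannot be told apart. Without the 5 libraries rich in male reproductive tract markers 2 B cell markers were called lower, and without the 3 rich in liver markers 5. The adjusted p of Cd79a was then 0.184 and 0.0478 at log2 fold changes of -1.30 and -1.53. Without 129 replicate 7 alone, 7 B cell markers were called.

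Of 31 T and natural killer cell markers, 9 were called lower and none higher in 129, with a median of -0.70. That is 29.0% of the list, beside 5.88% of all genes called lower. The natural killer receptor gene Klrk1 measured 0.486 to 1.66 CPM (median 1.01) in 129 and 1.89 to 4.61 CPM (median 2.32) in B6 (log2 -1.51 ± 0.31 SE, adjusted p = 3.59e-04). Klrd1, its neighbour in the natural killer complex, measured 0.182 to 0.493 CPM (median 0.243) in 129 and 0.65 to 1.09 CPM (median 0.893) in B6 (log2 -1.66 ± 0.40 SE, adjusted p = 0.0024). Both were lower in every 129 library. Without the 5 libraries rich in male reproductive tract markers 2 members of the list were called lower, and Klrk1 was not among them (adjusted p = 0.0657). Without the 3 libraries rich in liver markers 3 were called lower. The summed T and natural killer level ran from 54.4 to 110.3 CPM in 129 (median 64.1) and from 74.1 to 184 CPM in B6 (median 85.1), with B6 replicate 6 the highest. Without B6 replicate 6, 6 members were called lower and 1 higher. The count was 5 without 129 replicate 3, 5 without 129 replicate 6 and 4 without 129 replicate 7.

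Myeloid markers moved both ways. Of 28 macrophage markers 25 were negative with a median of -0.51 and 4 were called lower, 14.3% beside 5.88% of all genes, among them Folr2 of tissue-resident macrophages (log2 -1.02 ± 0.18 SE, adjusted p = 3.57e-05) and the Fc receptor gene Fcgr4 (-1.94 ± 0.46 SE, adjusted p = 0.00211). Without 129 replicate 1 or 9 that count was 8, and without B6 replicate 2 it was 7. It was 13 in the fit on the 15 libraries alone and 2 without the 5 libraries rich in male reproductive tract markers. Of 16 genes of lipid-associated macrophages, 1 was called higher and 1 lower (12.5% beside 10.4%), with 9 negative and a median of -0.14. Trem2, a lipid receptor, was the 1 called higher in 129. It measured 30.3 to 85.4 CPM (median 37.1) in 129 and 2.58 to 45.3 CPM (median 7.44) in B6 (log2 2.03 ± 0.51 SE, adjusted p = 0.00381), and the ranges overlapped through B6 replicate 6 alone, since the other 7 B6 libraries reached at most 12.8 CPM. The tetraspanin gene Cd63, which shares reads, was the 1 called lower (log2 -0.45 ± 0.13 SE, adjusted p = 0.0134). Of 24 markers of dendritic cells, neutrophils and mast cells, 2 were called higher and 5 lower, 29.2% beside 10.4%, with a median of -0.26. The 5 were Cd209a, Ccr7, Flt3, Clec9a and Kit, and the 2 were Tpsab1 and Itgae. The lower count was 3 without 129 replicate 4 or without the 5 libraries rich in male reproductive tract markers, and the higher count was 1 without any of 129 replicates 2, 4, 6 and 7 and B6 replicates 1, 3, 5, 6 and 8. Ccr7, the receptor that guides dendritic cells to lymph nodes, measured 0.257 to 0.742 CPM (median 0.637) in 129 and 0.948 to 3.3 CPM (median 1.42) in B6 (log2 -1.60 ± 0.31 SE, adjusted p = 1.27e-04). The mast cell tryptase gene Tpsab1 was higher in 129 at 1.22 to 5.68 CPM (median 2.11), against 0.313 to 0.627 CPM (median 0.473) in B6 (log2 2.57 ± 0.42 SE, adjusted p = 5.58e-06), without overlap. The eosinophil-associated ribonuclease gene Rnase2a was also higher in 129 (log2 3.61 ± 0.36 SE, adjusted p = 8.41e-12).

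Of 34 interferon response genes, 33 had negative log2 fold changes with a median of -0.93, 9 were called lower and 1 higher in 129. The called members were 29.4% of the list, beside 10.4% of all genes. Irgm2, an immunity-related GTPase that shares reads, measured 11.8 to 18 CPM (median 16.4) in 129 and 29.3 to 77.3 CPM (median 44.3) in B6 without overlap (log2 -1.58 ± 0.26 SE, adjusted p = 5.23e-06). Iigp1, of the same family, measured 7.8 to 22.9 CPM (median 17) in 129 and 26 to 69.8 CPM (median 45.1) in B6 without overlap (log2 -1.57 ± 0.45 SE, adjusted p = 0.0142). Xaf1, a partner of an inhibitor of apoptosis, was the 1 called higher, at 25.4 to 37.3 CPM (median 28) in 129 and 13.1 to 18.6 CPM (median 14.2) in B6 (log2 0.97 ± 0.22 SE, adjusted p = 0.00128). The count depended on the fit, with 27 members lower when only the 15 libraries were fitted, 16 in DESeq2 and 2 without the 5 libraries rich in male reproductive tract markers, where Iigp1 had an adjusted p of 0.224 and Irgm2 of 0.0029. Summed over the list, the level ran from 733 to 1131 CPM in 129 (median 891) and from 1055 to 1689 CPM in B6 (median 1240.0).

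Complement and cell cycle genes were also lower in 129 where called. Of 30 complement and coagulation genes 5 were called lower and none higher, 16.7% beside 5.88% of all genes called lower. C6, a component of the membrane attack complex, measured 16.1 to 34.9 CPM (median 19.7) in 129 and 56.3 to 138 CPM (median 97.7) in B6, and Cd59a, which blocks that complex, measured 46 to 59.4 CPM (median 53.9) in 129 and 80.01 to 168 CPM (median 122) in B6. Both were lower in every 129 library (log2 -2.13 ± 0.47 SE, adjusted p = 7.86e-04 for C6 and -1.19 ± 0.17 SE, adjusted p = 2.69e-07 for Cd59a). Of 24 proliferation genes 6 were called lower, 25% beside 5.88%. Mcm6, a subunit of the replicative helicase, measured 2.91 to 11.1 CPM (median 4.37) in 129 and 11.5 to 28.5 CPM (median 17) in B6 without overlap (log2 -1.79 ± 0.21 SE, adjusted p = 1.97e-09). Of 20 adipose progenitor markers 3 were called lower, 15% beside 5.88%, among them Pi16 of the interstitial progenitors at 37.6 to 65.4 CPM (median 50.6) in 129 and 65.7 to 183 CPM (median 99.5) in B6 (log2 -1.06 ± 0.25 SE, adjusted p = 0.00243). Of 16 endothelial markers none was called by edgeR or DESeq2, and 2 had an unadjusted p under 0.05. Without the 5 libraries rich in male reproductive tract markers 2 complement genes, 5 proliferation genes and 1 progenitor marker were called lower, and the fit on the 15 libraries alone called 12, 8 and 8. The complement count was 3 without any of 129 replicates 2, 3 and 4 and B6 replicate 3. The proliferation count was 3 without 129 replicate 4 or B6 replicate 6, 10 without B6 replicate 2 and 11 without 129 replicate 9, the library with the most Bub1b and Mki67 of its strain.

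**Figure D4:**
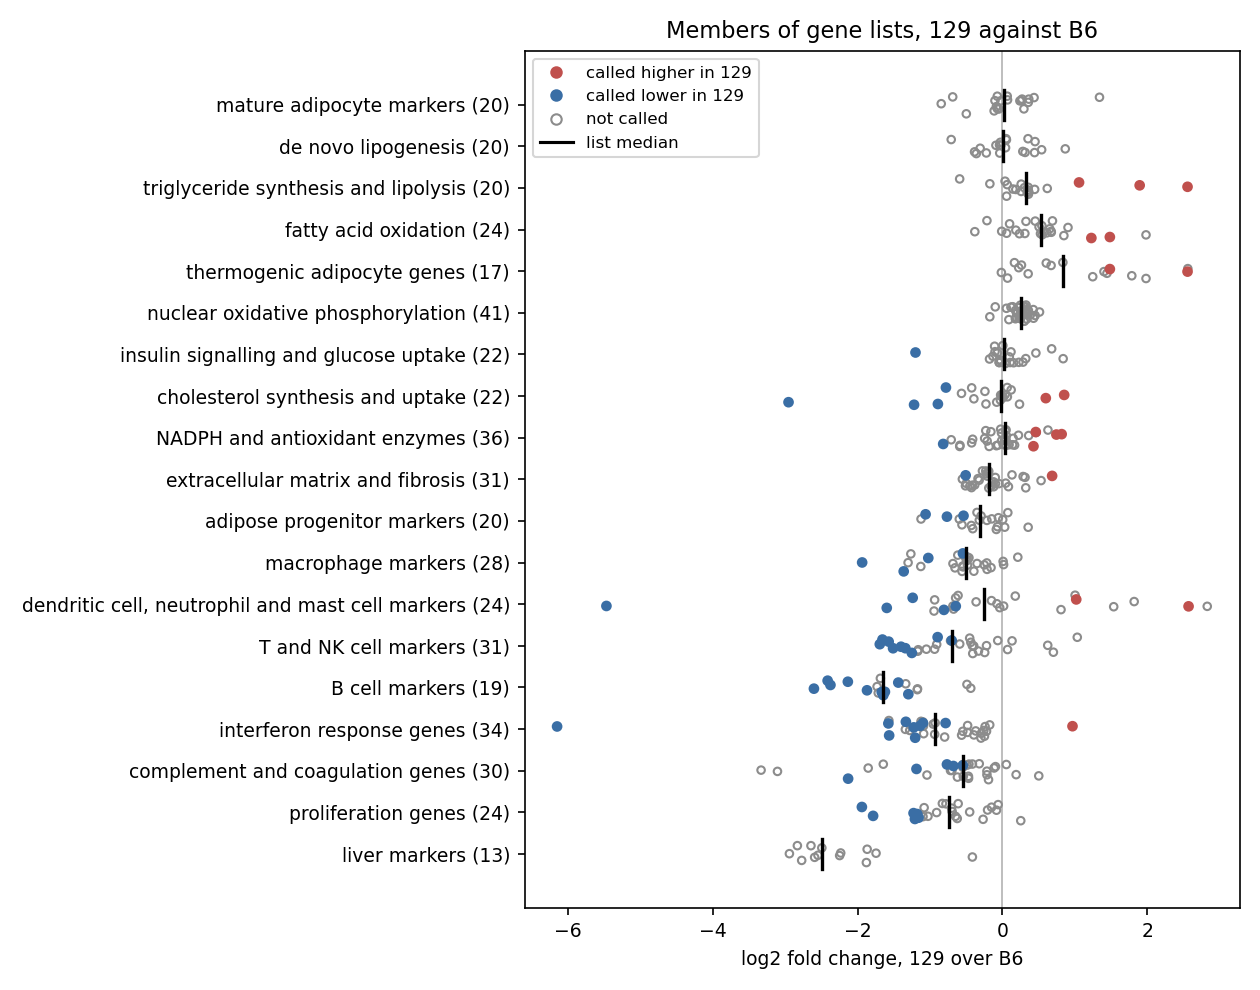
Log2 fold change of 129 over B6 (horizontal axis) for the tested members of 19 gene lists (rows, number tested in brackets). Filled points were called, open points were not, and the black line is the list median, which runs from -2.50 for liver markers to 0.84 for thermogenic genes.

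All 13 liver markers were negative with a median of -2.50, none was called by edgeR or DESeq2, and 4 had an unadjusted p under 0.05. Their sum ran from 21 to 107.5 CPM in 129 (median 42.3) and from 7.18 to 577 CPM in B6 (median 153). Male reproductive tract markers ran from 0 to 1101 CPM in 129 (median 0.165) and from 0.222 to 1171 CPM in B6 (median 0.623). Skeletal muscle markers ran from 33.2 to 201 CPM in 129 and from 46.9 to 155 CPM in B6, and the muscle calcium buffer gene Pvalb was the 1 called of 14. Erythrocyte markers reached 5021 CPM in 129 replicate 3, against at most 1761 CPM in the other 129 libraries and 1589 CPM in B6.

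Called genes were spread over the genome unevenly. Chromosome 14 had the largest share of its tested genes called among the autosomes, 17.5%, followed by chromosome 17 with 13.8% and chromosome 8 with 13.3%, while chromosome 10 had 5.44% and the X chromosome 3.75%. Of 245 windows of 10 Mb with at least 20 genes tested, 8 held no called gene and 21 held over 20%, and the median was 9.04%. The first 10 Mb of chromosome 14 held the most, 43.2% of 37 genes, 13 of the 16 called sharing reads. Its share was 25.0% without genes that share reads, 21.6% without the 5 libraries rich in male reproductive tract markers and 24.3% without the 3 rich in liver markers. The window of chromosome 12 from 20 to 30 Mb followed with 39.5% of 38 genes, 4 of its 15 called genes sharing reads. Peroxidasin, encoded there by Pxdn and active in crosslinking collagen of basement membranes, measured 261 to 308 CPM (median 298) in 129 and 389 to 516 CPM (median 481) in B6 without overlap (log2 -0.71 ± 0.14 SE, adjusted p = 2.34e-04). In the next window of chromosome 14, 37.0% of 27 genes were called, among them the interleukin 3 receptor gene Il3ra (log2 0.73 ± 0.13 SE, adjusted p = 6.18e-05) and the retinoic acid receptor gene Rarb (0.88 ± 0.18 SE, adjusted p = 2.58e-04), both higher in 129. By class, 9.96% of protein-coding genes, 11.7% of long noncoding genes and 17.8% of pseudogenes were called, and 67.2% of the pseudogenes tested share reads.

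**Figure D5:**
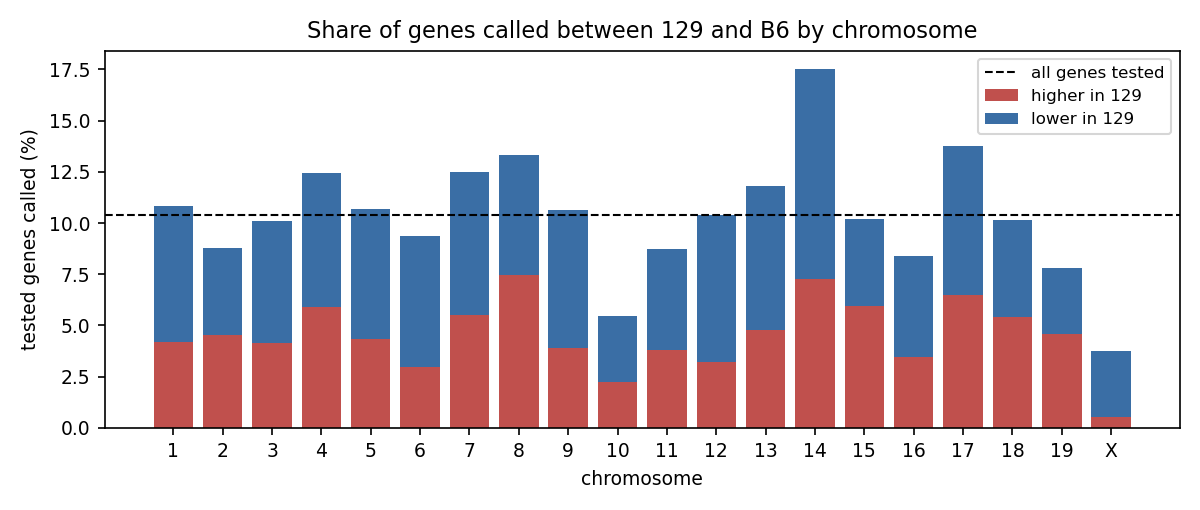
Share of tested genes called on each autosome and the X chromosome (vertical axis, percent), split into genes higher and lower in 129, with a dashed line at the 10.4% of all genes tested. Chromosome 14 stands highest at 17.5% and the X chromosome lowest at 3.75%.

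The other 6 founder strains were set beside the pair. Of the 1941 called genes, the 129 mean alone lay outside the range of the other 6 strain means in 403 (20.8%) and the B6 mean alone in 535 (27.6%), beside 9.96% and 10.8% of all genes tested. Both lay outside in 96 genes and neither in 907. Called genes were picked for a difference between 129 and B6, so a larger share outside than over all genes is partly built in. The contrasts of 129 or B6 against the other 7 strains reuse the same libraries, and the 7 include the partner strain. They place a gene among the strains and are no separate support for its call. Gdpd3 was a 129 extreme, at a mean of 69.3 ± 11.5 CPM (SD, n = 7) beside at most 2.12 CPM in the other 6 strains (129 against the mean of the other 7 strains, log2 5.66 ± 0.10 SE, adjusted p = 5.68e-47). Elovl7 was another, at 15.7 ± 1.37 CPM beside at most 4.94 CPM in the other 6 (log2 3.01 ± 0.22 SE, adjusted p = 2.96e-16). Ncoa4 was low in 129 at 33.2 ± 4.94 CPM and in WSB at 39.3 CPM, and ran from 152 to 758 CPM in the remaining 5. Tbc1d4 was lowest in 129 (log2 -1.02 ± 0.18 SE, adjusted p = 2.12e-05 against the other 7).

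B6 was the extreme for another set. Wdfy1 averaged 43 ± 1.51 CPM in 129 (SD, n = 7), 15.8 ± 1.34 CPM in B6 (SD, n = 8) and from 41.3 to 54.3 CPM in the other 6 strains (B6 against the other 7, log2 -1.58 ± 0.05 SE, adjusted p = 4.73e-33). Atp10d averaged 22.5 ± 4.09 CPM in B6 and at least 97.3 CPM in the other 6 (log2 -2.51 ± 0.12 SE, adjusted p = 3.65e-25). Trim12a was at 17.3 ± 2.58 CPM in B6 and at most 1.23 CPM in the other 6 (log2 5.42 ± 0.19 SE, adjusted p = 1.52e-31), Eps8l1 at 8.9 ± 3.86 CPM beside at most 0.919 CPM (log2 4.35 ± 0.28 SE, adjusted p = 5.33e-19) and Pttg1 at 18.6 ± 2.19 CPM beside at most 4.11 CPM (log2 3.83 ± 0.17 SE, adjusted p = 5.78e-26). Plin5 averaged 8.56 ± 2.4 CPM in B6, under the 14.1 to 44.4 CPM of the other 6 (B6 against the other 7, log2 -1.69 ± 0.30 SE, adjusted p = 1.29e-05), whereas 129 missed the threshold against the mean of its other 7 (log2 0.48 ± 0.26 SE, adjusted p = 0.204). Rbp7 was likewise called in B6 (log2 -1.69 ± 0.25 SE, adjusted p = 3.91e-07) and missed the threshold in 129 (0.51 ± 0.22 SE, adjusted p = 0.0995). Whether the contrasts of 129 and of B6 differ in size was not tested. For Hal and Gvin1 the strains lay at opposite ends of all 8, with 119 ± 28.6 CPM in 129 and 1.83 ± 0.578 CPM in B6 around 3.12 to 70.4 CPM in the other 6 for Hal, and 0.0901 ± 0.115 CPM in 129 and 84.8 ± 25.9 CPM in B6 around 0.312 to 19.2 CPM for Gvin1.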

How the data were processed

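RNA of adipose tissue was made into poly(A)-selected libraries with an added spike-in control, per the labels' protocols. The authors deposited expected counts per gene, estimates that can split a read between similar genes, and log2 values made from them by the variance-stabilising transformation of DESeq2, per the submitters' processing notes, which also name build GRCm38 and give no version of DESeq2. No aligner or counter is given in the sources used here, nor whether 129 reads were aligned to a 129 genome, so the part of reference sequence in differences from B6 was not tested.

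Expected counts were rounded. Genes were filtered with filterByExpr by strain, which set aside 2566, given TMM factors and fitted with edgeR 4.0.16 (R 4.3.3) to all 61 libraries with 1 mean per strain and robust quasi-likelihood dispersion. The contrast was 129 minus B6, 2-sided, with Benjamini-Hochberg adjustment over 18603 genes. CPM are TMM-scaled, also for the genes shown within the split by Xist. Marker sums and the Xist levels that set the split use CPM of the library total. Of the genes tested 4105 (22.1%) share reads, that is, their estimates were not whole within 1e-06 in over 50% of libraries. Fold changes of single strains against the mean of the other 7 came from the same fit. No 2 of the 15 libraries agreed within sampling noise (smallest chi-square per gene 21.9). Symbols turned into dates were restored for 23 genes by identifier.

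Gene lists (39, 776 genes tested, 111 called) and the rule for naming genes were chosen with earlier results of these data known, and got no test of their own. The rule took the 12 genes with the largest change each way among called genes with at least 5 CPM and no overlap, up to 4 called members of each list, the strain allele genes, the 10 with the smallest p, and 3 in each of the 3 windows with the largest share called. Some genes that the rule took are not reported here.

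Replicate numbers shared by 129 and B6 (6 pairs) were checked. Deviations from the strain means correlated at 0.149 to 0.540 (median 0.318) within a number and at a median of -0.172 across numbers. Every pair exceeded 0.1, so the number was fitted as a block in an alternative. Only 2 of 6 libraries of 129 correlated best with the B6 library of their own number, and other pairs reached 0.582. Same-numbered libraries also share their Xist level, high in replicates 1 to 4 of both strains, while pairs across numbers mix both levels. These correlations therefore do not tell pairing from Xist level, and the main test has no block. What the number marks is not given in the labels. In simulated data of this contrast over 18603 genes, 200 genes were changed. Of those changed by 1 on the log2 scale 60% were recovered, and 29% of those changed by 0.5. Of the calls, 2.20% fell on unchanged genes. The simulation drew each gene independently, without the split by Xist or RNA of other tissues. It also changed far fewer genes than were called here, so these rates may not hold for the real data. Alternatives were another set of libraries, size factors, filter, tool (DESeq2 1.42.0, limma 3.58.1 on the log2 values), a replicate block, Xist as a covariate, subsets of genes and leaving out libraries.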

Additional observations from a re-analysis of the deposited data

Results flagged for a closer look

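Of 256 sets of 7 or 8 libraries looked at, 32 had a library apart from the rest by Dixon's test at its 95% critical value. Chance gives about 1 in 20 only for independent, normally spread values. These sets reuse the same 15 libraries, which split by Xist, so the 32 cannot be set against that rate. B6 replicate 6 was apart most often. Its mature adipocyte markers summed to 41289 CPM, while the others ran from 54933 to 64053 CPM. Its macrophage markers summed to 3752 CPM (others at most 2514), its T and natural killer markers to 184 CPM (others at most 103.9), its male reproductive tract markers to 1171 CPM (others at most 323) and its duct epithelium markers to 107 CPM (others at most 42.1). It was also highest in Slamf7 (20.1 CPM), Casp4 (13.3 CPM), Naip5 (12.7 CPM), Flt3 (4.79 CPM), Ms4a7 (16.3 CPM), Trem2 (45.3 CPM) and Cxcl14 (16.7 CPM).

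In 129, replicate 3 was rich in red cell RNA, with erythrocyte markers summing to 5021 CPM where the others ran from 908 to 1761 CPM, Hbb-bs at 2221 CPM and Hbb-bt at 211 CPM, and it had the most Rsad2 (19.2 CPM). Replicate 9 of 129 was highest in the cell cycle genes Bub1b (4.48 CPM, others at most 1.77) and Mki67 (33.1 CPM, others at most 11.6) and in Naip5 (3.93 CPM). Replicate 2 of 129 stood apart in Glo1 (156 CPM), replicate 1 in Nlrp1a (0.203 CPM, all others at 0) and Fcmr (0.666 CPM), and replicate 6 in Klrd1 (0.493 CPM).

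Among B6 libraries, replicate 1 had the most Ucp1 (201 CPM, others 0.184 to 82.7 CPM), Cpt1b (44.4 CPM), Gbp2b (2.07 CPM) and Trim30d (16.2 CPM). B6 replicate 3 had the lowest sum of B cell markers (232 CPM, others at least 403). Other B6 libraries stood apart in 1 or a few genes each, replicate 4 in Disc1 (2.31 CPM) and Gzmb (0.919 CPM), replicate 5 in Rnase2a (2.83 CPM) and replicate 7 in Ifi202b (0.474 CPM).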

How the results depend on the processing

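The counts are 1941 called genes, 848 higher and 1093 lower in 129. Fitting only the 15 libraries gave 2988, 1284 and 1704, with 208 called list members in place of 111, and 1725 of the 1796 main calls testable there were shared. Requiring a mean of 5 CPM gave 1134, 511 and 623, with 571 called genes without overlap in place of 1006, 73 list members, 25.0% for the window of chromosome 14 that held 43.2%, and 358 in place of 631 genes with the B6 mean outside the other 6 strains (alone or together with 129). Requiring a fold of 2 gave 874, 320 and 554, with 536 without overlap and 314 with B6 outside. Removing the 5 libraries rich in male reproductive tract markers, chosen after seeing the data, gave 1156, 525 and 631, with 55 list members, 21.6% for the window and 412 with B6 outside, and the smaller number of samples is part of that. It also left 129 with high-Xist libraries only, beside B6 libraries of both Xist levels, and the part of that was not tested. The window share was 25.0% without genes that share reads and 24.3% without the 3 libraries rich in liver markers. Leaving out single libraries gave 1637 to 1936 called genes, 710 to 842 higher, 918 to 1094 lower, 986 to 1100 without overlap, 85 to 121 list members, 35.1% to 43.2% for the window and 543 to 621 with B6 outside. RLE size factors called 1948 genes, no filter 1961, DESeq2 2342 and limma 2085.

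The replicate block called 1900 genes, 1731 shared with the unblocked fit, and Xist as a covariate 2209, 1930 shared. Beside the genes given above, the block took the adjusted p of Gsta3 to 0.0557, of Gzmb to 0.0774, of Itgae to 0.0574 and of Cxcl14 to 0.0611, and changed no other call among the genes examined. Of 102 called genes examined, 63 kept the call in each alternative that tested them, a minimum fold aside, and none changed sign. Signs changed for uncalled genes only, Adipoq (0.04 without the 5 libraries) and Xist (-0.32 in the block, -0.10, -0.12 and -0.09 without 129 replicates 2, 3 and 4, -0.07 without any of B6 replicates 5 to 8, and a range of -0.12 to 0.39 over single libraries left out), the cause not being tested. Windows of 5 Mb put 41.4% at the top.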

Other observations

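Of 21 class I antigen presentation genes, 2 were called higher and 2 lower in 129, 19.05% beside 10.4% of all genes, with a median of -0.04. The nonclassical class I gene H2-T10, which shares reads, measured 12.6 to 16.1 CPM (median 14.5) in 129 and 3.39 to 5.86 CPM (median 4.44) in B6 (log2 1.66 ± 0.15 SE, adjusted p = 3.12e-13), and its neighbour H2-T24 was higher as well (log2 0.78 ± 0.23 SE, adjusted p = 0.0201). H2-M3, which presents formylated peptides, was lower in 129 at 3.71 to 6.46 CPM (median 5.89), against 6.58 to 9.93 CPM (median 8.4) in B6 (log2 -0.62 ± 0.16 SE, adjusted p = 0.00562). The class I transactivator gene Nlrc5 was also lower (log2 -0.72 ± 0.21 SE, adjusted p = 0.0151). In none of the 4 genes did the strains overlap. Without the 5 libraries rich in male reproductive tract markers 1 of the list was called higher and none lower, and H2-M3 had an adjusted p of 0.116. Without the 3 rich in liver markers 1 was called lower.

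The SLAM family of lymphocyte surface receptors on chromosome 1 showed both directions within 1 gene cluster. Slamf7 measured 0.714 to 1.51 CPM (median 0.782) in 129 and 5.41 to 20.1 CPM (median 7.3) in B6 (log2 -3.20 ± 0.38 SE, adjusted p = 2.34e-09), and Cd244 measured 0.243 to 0.771 CPM (median 0.527) in 129 and 1.25 to 2.62 CPM (median 1.7) in B6 (log2 -1.73 ± 0.34 SE, adjusted p = 1.53e-04). Slamf1, which shares reads, was higher in 129 at 0.234 to 1.39 CPM (median 1.16), against 0.213 to 0.553 CPM (median 0.387) in B6 (log2 1.46 ± 0.40 SE, adjusted p = 0.0092). Slamf7 and Cd244 did not overlap between the strains and Slamf1 did. Among secreted products of fat tissue, Ccdc3, which shares reads, measured 129.9 to 157 CPM (median 143) in 129 and 31.6 to 54.6 CPM (median 43.9) in B6 (log2 1.72 ± 0.28 SE, adjusted p = 5.28e-06), and the alpha-1 antitrypsin gene Serpina1b, which shares reads with its copies, measured 52.4 to 156 CPM (median 87.6) in 129 and 0.587 to 25.8 CPM (median 7.65) in B6 (log2 3.41 ± 0.86 SE, adjusted p = 0.00416). Both were higher in every 129 library.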
